A study of Mus musculus with 6 samples.

Results

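The transcripts followed here in bulk liver RNA are those of 9 genes that mark B cells and antibody-secreting plasma cells: Ms4a1, Cd79a, Cd79b, Cd22, Fcmr, Ighm, Igkc, Jchain and Mzb1. They were chosen by symbol, and each of the 9 was found once among the 21956 genes of the deposited table. The livers came from 3 Stingfl/fl Cdh5-Cre+ mice (endothelial Sting knockout) and 3 Stingfl/fl Cdh5-Cre- littermates (control). Both groups carried the floxed Sting alleles, and both ate CDAHFD, a fatty diet that lacks choline and supplies L-amino acids in place of protein, from 8 weeks of age and over 10 weeks to bring on steatohepatitis. The Cdh5 promoter directs Cre to endothelial cells, and since knockout mice alone carried it, the deletion and the presence of Cre cannot be told apart.

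B cells carry an antibody molecule on their surface, paired with the signalling chains encoded by Cd79a and Cd79b, and most stop expressing this receptor when they mature into plasma cells. Plasma cells instead secrete antibody in large amounts, so that a small number of them can supply most of the immunoglobulin transcripts of a tissue. In the liver, plasma cells that secrete IgA and IgG lie in the portal tracts and sinusoids, and B cells have been linked to inflammation and fibrosis in fatty liver disease.

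The livers held far more antibody transcript than B cell receptor transcript, and the antibody transcripts differed more between animals of a group than between the groups. On the TPM scale, which is corrected for gene length, Igkc stood highest of the 9 members with 321 ± 124.2 TPM (SD, n = 3) in control livers against 250.3 ± 175.5 TPM in knockout livers. Jchain followed at 65.3 ± 31.7 and 48.7 ± 32.3 TPM, and Ighm at 16.0 ± 4.40 and 15.0 ± 4.80 TPM. The other 6 members had mean TPM values from 0.552 to 6.46. Igkc stood first in each of the 6 libraries, and Jchain second in all but knockout replicate 2, where it had 16.3 TPM against 17.4 for Ighm. Fcmr and Ms4a1, the lowest members, did not differ beyond their spread, at 0.689 ± 0.448 and 0.634 ± 0.066 TPM in control and 0.792 ± 0.087 and 0.552 ± 0.298 TPM in knockout livers.

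The libraries held 16704663 to 21025466 counts. Sting1 checked the labels, with 106, 114 and 80 counts in knockout and 240, 365 and 226 counts in control replicates 1 to 3. One library, control replicate 2, stood apart, with a TMM scaling factor of 1.26 against 0.922 to 1.01 elsewhere. The labels name both liver and sinusoidal endothelial cells. The 6 hepatocyte markers summed to 86870 to 138024 CPM (counts scaled to a fixed library total), so that the values are those of whole liver. In such samples, fewer cells of a type and less RNA per cell cannot be told apart.

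No member passed the test of knockout against control. In the edgeR quasi-likelihood fit over 13197 genes, with Benjamini-Hochberg adjustment, 0 of 9 members and 0% of all genes had an adjusted p under 0.05. At an unadjusted p under 0.05 there were 0 of 9 members, against 1419 genes or 10.8% of all genes tested (3.75% higher and 7% lower in knockout). DESeq2 called 127 genes, or 0.969%, and limma-voom called 0, with no member among them. Of the 9 members 7, or 77.8%, had a log2 fold change above 0, against 51.2% of all genes tested. The median over the members was 0.26 and that over all genes 0.00826. All 9 members had passed the filter on low counts.

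The bases in front of the genes are shown for Cd79a, the member whose groups did not overlap, and for Jchain, the antibody gene whose libraries stood in the same order as those of Igha. Each window is the 120 bases upstream of the gene start (RefSeq, GRCm38.p6), 5′ to 3′ on the gene's strand, and capitals mark matches to the letters searched.
Cd79a, chr7:24897261-24897380, plus strand: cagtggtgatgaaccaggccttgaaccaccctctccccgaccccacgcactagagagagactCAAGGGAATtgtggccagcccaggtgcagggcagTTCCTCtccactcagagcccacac
Jchain, chr5:88527898-88528017, minus strand: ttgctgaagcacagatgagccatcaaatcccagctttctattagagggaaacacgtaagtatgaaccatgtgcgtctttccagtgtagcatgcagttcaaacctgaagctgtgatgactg
The Cd79a window held CAAGGGAAT, a form of the EBF1 motif that was added to the search after the sequence had been read, and which 0.0822% of 32851 promoter windows of this length hold on either strand. It also held GAGGAA, the core of Ets family motifs, on the reverse strand, as 11.6% of windows do. Neither window held ATGCAAAT, the octamer of immunoglobulin promoters (0.791% of windows), the palindromic EBF1 consensus (0.374%), CAGCTG (6.76%) or TATAAA (6.34%). CAGCTG was found in the window of Fcmr, the third member searched, which held no other match. Both strands were searched, and none of these matches overlapped. Of the 9 members 4 were in the promoter table.

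**Figure D1:**
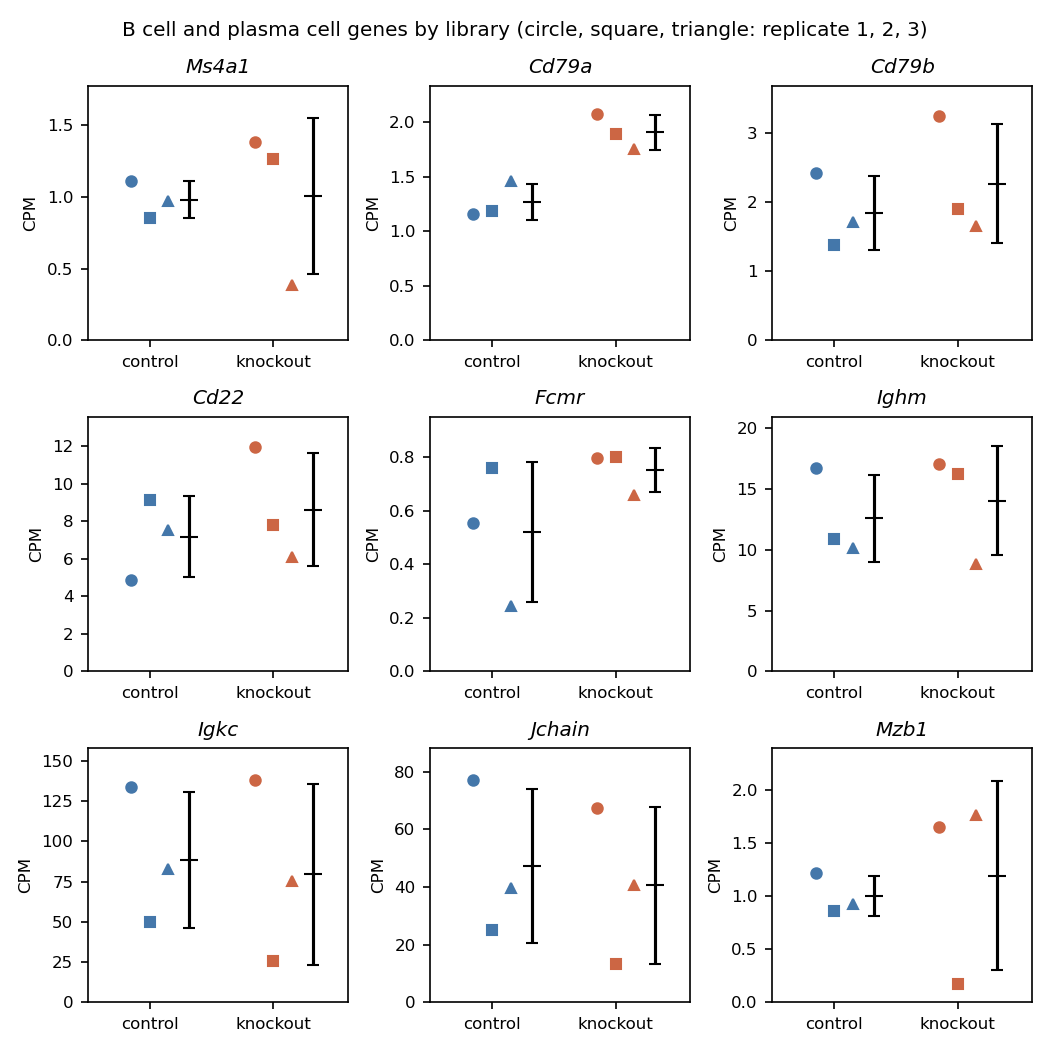
TMM-scaled CPM of the 9 members in each library, with a panel and a linear axis from 0 for each gene. Symbols are animals (circle, square and triangle for replicates 1, 2 and 3), and bars are the mean ± SD of 3 animals. The groups overlap in 8 panels, and in that of Cd79a every knockout library lies above every control library.

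Of the 9 members Cd79a had the highest log2 fold change, followed by Fcmr. Cd79a (ENSMUSG00000003379, GRCm38 chromosome 7, 24897381 to 24902197, plus strand) encodes Ig-alpha, a signalling chain of the receptor, and had 39, 33 and 32 counts in knockout and 23, 25 and 30 counts in control replicates 1 to 3. Every knockout library lay above every control library, in counts, in CPM and in TPM. The means were 1.91 ± 0.16 CPM (SD, n = 3) in knockout and 1.27 ± 0.17 CPM in control livers, a ratio of 1.5. On the log2 scale the difference was 0.58 (standard error 0.33, 95% interval -0.16 to 1.33). In edgeR, p was 0.111 unadjusted and 0.554 after Benjamini-Hochberg adjustment. An exact two-sided permutation test gave p = 0.1, and no smaller p can arise from 3 animals against 3. Groups did not overlap for 1 of the 9 members, against 16.4% of all genes tested, with the knockout higher for 7.25% and lower for 9.14%, so that the share among members lies near that background.

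Cd79b (chromosome 11, 106311341 to 106314762, minus strand) encodes Ig-beta, the partner of Ig-alpha. Knockout replicates 1 to 3 had 61, 33 and 30 counts, and control replicates 48, 29 and 35. Replicate 1 was the highest library of each group. Its log2 fold change was 0.30, with a 95% interval of -0.58 to 1.18. Although the 2 chains work as a pair, the ratio of Cd79b to Cd79a in TPM ran from 1.14 in knockout replicate 3 to 2.55 in control replicate 1. Counting error alone gives a coefficient of variation of 15.6% for Cd79b and 17% for Cd79a in the knockout libraries, and the observed values were 38.0% and 8.30%.

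Ms4a1 (chromosome 19, 11249675 to 11266241, minus strand) encodes CD20, a surface protein of mature B cells that plasma cells lose. Knockout replicates 1 to 3 held 26, 22 and 7 counts of it, against 22, 18 and 20 counts in the controls. The 3 control libraries lay close together, and knockout replicate 3 lay below all other libraries. The means were 1.01 ± 0.54 and 0.982 ± 0.13 CPM (SD, n = 3) in knockout and control livers. The log2 fold change of 0.04 had a 95% interval of -1.14 to 1.22, which covers folds from 0.455 to 2.33. It was 0.43 without knockout replicate 3 and -0.25 without knockout replicate 1. Antisense genes overlap Ms4a1 and Cd22, and a non-coding gene overlaps Igkc on its strand; these were not analysed here, and the sources used here do not say whether counting used the strand.

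Cd22 (chromosome 7, 30865402 to 30880342, minus strand) encodes a sialic acid-binding inhibitory receptor of B cells. It was the most abundant of the 5 B cell members, at 225, 136 and 111 counts in knockout and 96, 192 and 155 counts in control replicates 1 to 3. Knockout replicate 1 stood highest and control replicate 1 lowest. Its log2 fold change was 0.26, with a 95% interval of -0.44 to 0.96. The authors' TPM gave another order, with control replicate 2 highest at 11.0 against 2.69 to 5.77 in the other libraries, and the log2 fold change on log2(TPM + 1) was -0.38. The counts that 1 TPM of Cd22 stands for, relative to the library's own level, were 0.625 and 0.727 of the gene's median in control replicates 2 and 3, and 0.974 to 1.135 in the other libraries. This quantity follows the transcript length that the estimate assigns, and Cd22 has 16 annotated transcripts of 347 to 3974 bases. For the other 8 members it stayed between 0.973 and 1.09.

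Fcmr (chromosome 1, 130865669 to 130880791, plus strand) encodes the Fc receptor for IgM. Knockout replicates 1 to 3 had 15, 14 and 12 counts, and control replicates 11, 16 and 5. Control replicate 3 was the lowest library, and the groups overlapped through control replicate 2. Fcmr had a log2 fold change of 0.53, with a 95% interval of -0.69 to 1.74. Leaving out control replicate 3 moved it to 0.19 and leaving out control replicate 2 to 0.91.

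Summed over the 5 B cell members, the level before TMM scaling was 9.79 to 17.9 CPM in knockout and 10.2 to 16.8 CPM in control livers. On this scale knockout replicate 1 and control replicate 2, the library with the TMM factor of 1.26, were the highest. By TMM-scaled CPM, control replicate 2 was the lowest library for Cd79b and lay behind only knockout replicate 1 for Cd22. All 5 members had log2 fold changes above 0, with a median of 0.30, but without knockout replicate 1 Ms4a1, Cd79b and Cd22 lay below 0, at -0.25, -0.0484 and -0.0451. The 4 antibody and plasma cell members had 2 above 0 and 2 below 0.

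The antibody genes Igkc and Jchain differed widely between animals of a group. Igkc (chromosome 6, 70726435 to 70726966, plus strand) encodes the constant part of the kappa light chain, which most mouse antibodies carry. It had 2591, 447 and 1367 counts in knockout and 2642, 1043 and 1694 counts in control replicates 1 to 3. Replicate 1 was the highest and replicate 2 the lowest library in each group, and the groups overlapped. The means were 79.5 ± 56.2 and 88.6 ± 42.2 CPM (SD, n = 3) in knockout and control livers. The log2 fold change was -0.16, with a 95% interval of -1.65 to 1.34 that covers folds from 0.319 to 2.53. The highest knockout library exceeded the lowest by 5.37 times in CPM. The coefficient of variation was 70.7% in knockout and 47.7% in control livers, where counting error alone gives 2.61% and 2.36%.

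Jchain (chromosome 5, 88519809 to 88527891, minus strand) encodes the joining chain, which links the antibody units of secreted IgA and IgM. It had 1269, 233 and 741 counts in knockout and 1523, 528 and 815 counts in control replicates 1 to 3. As for Igkc, replicate 1 was the highest and replicate 2 the lowest library in each group. The groups overlapped, and the log2 fold change was -0.22, with a 95% interval of -1.79 to 1.34. Although Igkc spanned 5.37 times and Jchain 5.76 times in CPM over the 6 libraries, the ratio of Igkc to Jchain counts stayed between 1.74 and 2.08.

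Mzb1 encodes a chaperone of the endoplasmic reticulum that aids antibody assembly in plasma cells and in marginal zone and B1 cells. It had 31, 3 and 32 counts in knockout and 24, 18 and 19 counts in control replicates 1 to 3. The 3 counts of knockout replicate 2, with an exact Poisson 95% interval of 0.619 to 8.77, were the lowest value, in the same library that was lowest in Igkc and Jchain. Mzb1 had a log2 fold change of 0.26, with a 95% interval of -1.27 to 1.80, and 0.77 without knockout replicate 2. Mzb1 lies on chromosome 18 (35647267 to 35649367, minus strand), 84.3 kb from Sting1, and both groups carried the floxed Sting1 alleles. A read-through gene that overlaps it on the same strand was listed at 0 in all 6 libraries.

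Ighm (chromosome 12, 113418558 to 113422730, minus strand) encodes the heavy chain of IgM, which serves B cells as a surface receptor and some plasma cells as a secreted product. It had 320, 282 and 161 counts in knockout and 330, 228 and 208 counts in control replicates 1 to 3. The libraries stood in another order than for Igkc and Jchain: knockout replicate 2, lowest in both of those, lay above 3 of the other 5 libraries in Ighm CPM. Ighm had a log2 fold change of 0.16, with a 95% interval of -0.49 to 0.81, the narrowest interval of the 9 members. The ratio of Jchain to Ighm counts was 0.826 in knockout replicate 2 and 2.32 in control replicate 2, against 3.92 to 4.62 in the other 4 libraries.

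**Figure D2:**
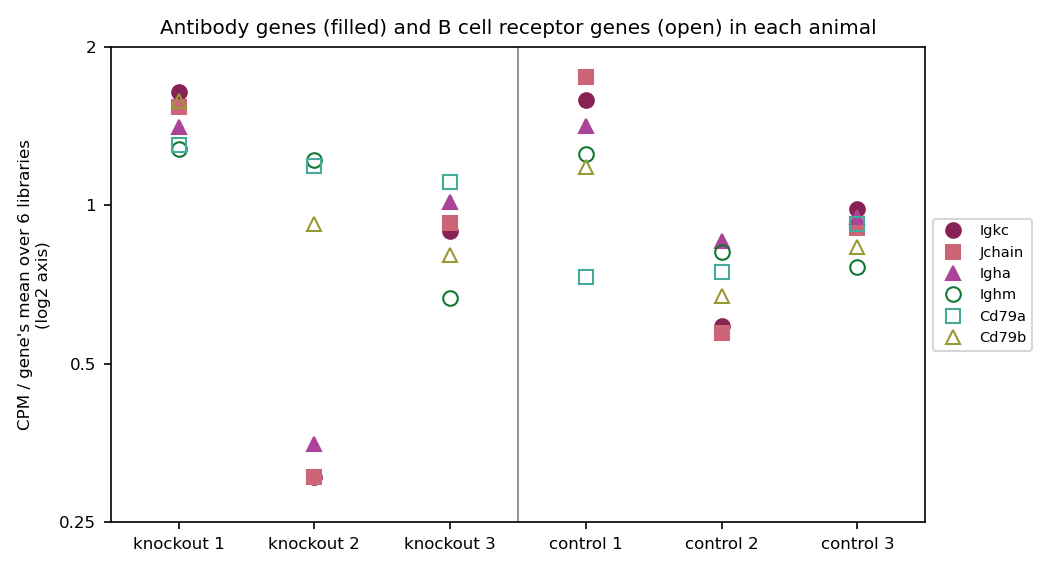
CPM of 6 genes in each library, divided by the gene's own mean over the 6 libraries, on a log2 axis; filled symbols are Igkc, Jchain and Igha, and open symbols are Ighm, Cd79a and Cd79b. Igkc and Jchain lie close together in each library, and all 3 filled symbols are lowest in knockout replicate 2, where none of the open symbols is.

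The other constant genes of the heavy chain showed which classes of antibody the livers held. Igha, for IgA, had 1892, 437 and 1319 counts in knockout and 1997, 1280 and 1387 counts in control replicates 1 to 3, and its libraries stood in the same order by CPM as those of Jchain. Ighg2c had 1812, 290 and 727 counts in knockout and 1482, 324 and 877 counts in control replicates 1 to 3, and Ighg2b had 1202, 138 and 848 against 1316, 238 and 1248. Ighg1 varied most, with 1035, 32 and 186 counts in knockout and 349, 60 and 303 counts in control replicates 1 to 3, a span of 30.0 times in CPM. Ighg3 had 7 to 31 counts, Ighd, for the IgD of naive B cells, had 12 to 55, and Ighe, for IgE, had 0 to 5. None of the 9 constant genes tested beside Ighm and Igkc passed, 4 had log2 fold changes above 0 and 5 below, and the groups overlapped for all 9. Ighg2b and Ighg2c are similar in sequence, so that reads may have been split between them.

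The composition of the heavy chain counts differed between animals of a group. The IgG genes together made up 64.2%, 38.4% and 54.6% of the heavy chain constant counts in knockout replicates 1 to 3, against 57.3%, 29.8% and 60.3% in the controls. The exact Clopper-Pearson 95% interval was 35.7% to 41.2% for knockout replicate 2 and 27.9% to 31.8% for control replicate 2, and it covers counting error only. In each group, replicate 2 therefore had the smallest IgG share as well as the fewest heavy chain counts. The remainder differed between them: Igha made up 58.5% in control replicate 2 and 35.9% in knockout replicate 2, where Ighm made up 23.2% against 4.90% to 10.4% elsewhere. Lambda light chains, from Iglc1, Iglc2 and Iglc3, were a small part of the light chain counts, at 2.64% to 5.10%.

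**Figure D3:**
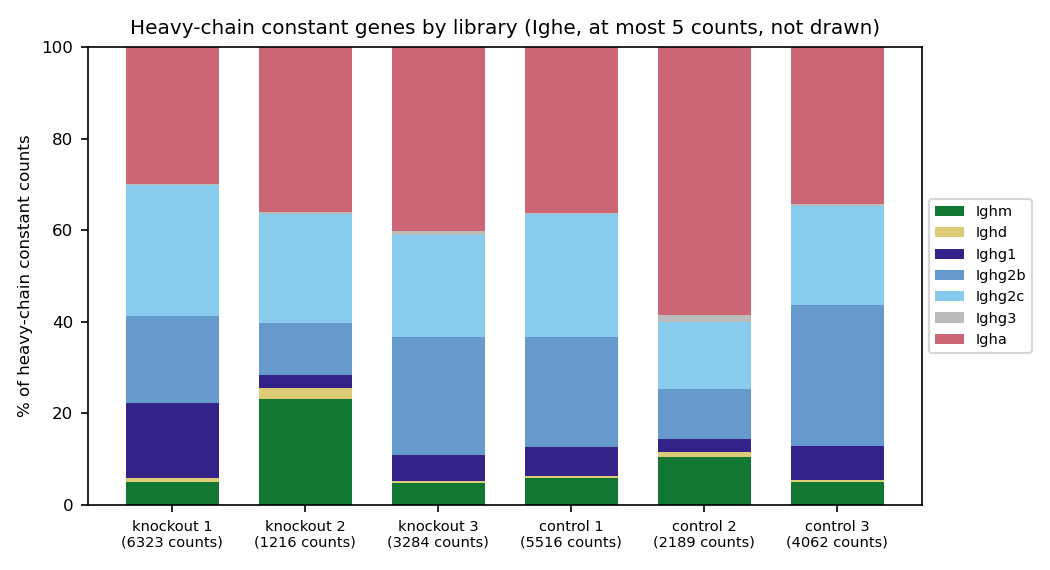
Share of each constant gene in the heavy chain constant counts of a library, in percent, with the total counts under each bar. Control replicate 2 has the largest Igha share (58.5%), and knockout replicate 2 the largest Ighm share (23.2%) on the fewest counts (1216).

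Counts of the variable segments were spread over many segments in each library. A count in at least 1 library was found for 86 of 100 kappa segments and for 81 of 113 heavy segments. In knockout replicates 1 to 3, 68, 53 and 66 kappa segments had a count, on 1209, 245 and 677 kappa counts. In control replicates 1 to 3, 73, 59 and 65 did, on 1113, 400 and 850 counts. In each group, replicate 2 had both the fewest kappa counts and the fewest kappa segments seen. Over all 6 libraries the kappa counts and the number of segments did not keep the same order. The most abundant kappa segment took 6.35% to 13.65% of the kappa counts, and the most abundant heavy segment 6.09% to 14.75% of the heavy segment counts. Igkv10-96 was the leading kappa segment in knockout replicates 1 and 3 and in control replicate 1, at 13.65%, 9.16% and 6.65%. Igkv3-2 led in knockout replicate 2 at 11.4%, Igkv1-110 in control replicate 2 at 7% and Igkv12-44 in control replicate 3 at 6.35%. Among heavy segments Ighv1-55 led in knockout replicates 1 and 2, Ighv1-64 in knockout replicate 3, Ighv8-12 in control replicate 1 and Ighv1-82 in control replicates 2 and 3. Iglv1 led the 3 lambda segments in every library. Segments of a family are similar in sequence, so that reads may have been split between them and single segments are uncertain. Of the 9 heavy, 24 kappa and 1 lambda segments tested in edgeR, 0 had an adjusted p under 0.05. An unadjusted p under 0.05 was found for 1 of the 9 heavy segments and 0 of the others, against 10.8% of all genes tested. Groups did not overlap in CPM for 2 of the 9 heavy segments and 0 of the others, against 16.4% of all genes tested.

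Other genes of the B cell receptor pathway included several that other cells express. Of 18 such genes 13 were tested, and 0 passed in either direction. Of the 13, 12 had log2 fold changes above 0, or 92.3% against 51.2% of all genes tested, with a median of 0.23. Cr2, for the complement receptor of mature B cells, had 4, 2 and 6 counts in knockout and 9, 8 and 12 counts in control replicates 1 to 3. Every knockout library of Cr2 lay below every control library, as for 9.14% of all genes tested, in the other direction than Cd79a. The B cell kinase gene Blk had 1 to 8 counts, and both genes were too low to be tested. Fcgr2b, an inhibitory IgG receptor that sinusoidal endothelium and macrophages also express, had 2338, 1846 and 1843 counts in knockout and 1701, 1507 and 1953 counts in control replicates 1 to 3, with a log2 fold change of 0.39 and an unadjusted p of 0.0337 in edgeR's test. Cd72, a co-receptor that restrains B cells, had a log2 fold change of 0.50 and Cd81, a broadly expressed tetraspanin, one of 0.23. In CPM the groups of Fcgr2b and of Cd81 did not overlap, with the knockout higher, as for 7.25% of all genes tested.

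Of 12 transcription factors and activation genes of the B lineage 11 were tested, 0 passed, and the median log2 fold change was 0.02. Pax5, which fixes B cell identity, had 25, 12 and 12 counts in knockout and 14, 4 and 14 counts in control replicates 1 to 3. Ikzf3, which encodes Aiolos and is shared with T cells, had 95, 66 and 38 against 47, 42 and 35 counts, with a log2 fold change of 0.84 and an unadjusted p of 0.0462. The coactivator gene Pou2af1 had 27, 14 and 19 against 24, 19 and 10 counts. Foxo1 and Bcl11a went the other way, with log2 fold changes of -0.24 and -0.53. Of the 11 genes tested 7 lay above 0, or 63.6% against 51.2% of all genes tested, and 4 lay below.

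Of 14 plasma cell programme genes 12 were tested and 0 passed. Of the 12, 10 lay above 0, or 83.3% against 51.2% of all genes tested, with a median of 0.34. Several, such as Xbp1, Creld2 and Edem2, serve the secretory pathway of many cell types. Xbp1, a transcription factor of the secretory pathway, had 3546, 3855 and 4790 counts in knockout and 2829, 2964 and 3520 counts in control replicates 1 to 3, with a log2 fold change of 0.56 and an unadjusted p of 0.0109. Sdc1, for syndecan-1, had a log2 fold change of 0.35 and Ell2, an elongation factor that favours secreted immunoglobulin, one of -0.31. The means of Sdc1 were 198.7 CPM in knockout and 155.7 CPM in control livers, above the 40.5 and 47.3 CPM of Jchain. Which cells supplied these transcripts was not tested. In knockout replicate 2, where Igkc was lowest, the endoplasmic reticulum gene Creld2 had 1362 counts against 233 to 553 elsewhere. Irf4, a factor that plasma cells need, had its lowest CPM in the same library, at 24 counts, whereas Prdm1, for the plasma cell factor Blimp-1 that other lymphocytes and macrophages also make, had its highest, at 108 counts. Tnfrsf17, the plasma cell survival receptor BCMA, had 0 to 7 counts.

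Of 18 survival and homing signals 11 were tested, 0 passed, and 8 lay below 0 with a median of -0.10. The share above 0 was 27.3%, against 51.2% of all genes tested. Cxcr4, which holds plasma cells near its ligand and is found on many leukocytes, had 196, 192 and 128 counts in knockout and 346, 269 and 277 counts in control replicates 1 to 3. Its groups did not overlap, with a log2 fold change of -0.62, an unadjusted p of 0.0181 in edgeR's test and no pass after adjustment. Groups did not overlap, with the knockout lower, for 2 of the 11 genes tested, against 9.14% of all genes. Cxcl13, the chemokine that draws B cells into follicles, had 68, 4 and 12 counts in knockout and 0, 11 and 9 counts in control replicates 1 to 3, so that knockout replicate 1 stood alone. Tnfsf13b, for the B cell survival factor BAFF, had 22 to 58 counts, and Tnfrsf13b, for its receptor TACI, 30 to 62 with the lowest CPM in knockout replicate 2.

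Markers of other cells moved with some of these libraries. Summed levels before TMM scaling were 18.3 to 39.0 CPM in knockout and 16.2 to 26.3 CPM in control livers for 12 T cell markers, with none at 0 in any library. Of these, 11 had log2 fold changes above 0, or 91.7% against 51.2% of all genes, with a median of 0.61. In edgeR 4 of the 12 (Cd8a, Cd8b1, Trbc1 and Cd3d) had an unadjusted p under 0.05, against 10.8% of all genes, and 0 passed after adjustment. For these same 4 genes the groups did not overlap, with the knockout higher, as for 7.25% of all genes. Knockout replicate 1, highest in 6 of the 9 members, was also the highest library for T cell markers and for 6 neutrophil markers, whose sum was 63.0 CPM there against 15.1 to 36.5 CPM elsewhere. For 8 plasmacytoid dendritic cell markers, a cell type that can express Jchain and Mzb1, the sum was 117 to 138 CPM in knockout and 117 to 201 CPM in control livers, with none at 0. Siglech, its most specific member, had 55, 45 and 36 counts in knockout and 36, 100 and 32 counts in control replicates 1 to 3. For 9 macrophage markers the unscaled sums were 968.1 to 1249 and 703.7 to 1206 CPM, the last in control replicate 2 (TMM factor 1.26). All 9 had log2 fold changes above 0, with a median of 0.63, 4 had an unadjusted p under 0.05, 3 had groups that did not overlap, and 0 passed after adjustment. All 6 hepatocyte markers lay above 0 as well, with a median of 0.43, and 0 passed. The sums were 362 to 385 and 316 to 391 CPM for 7 endothelial markers, with 391 CPM again in control replicate 2. For 7 natural killer cell markers they were 4.86 to 6.32 and 3.63 to 5.51 CPM, and Klra8 was at 0 in some libraries. The log2 fold changes use TMM scaling and these sums do not, so that groups overlapping in a sum may not overlap after scaling. The part of these cells in the members' values was not tested.

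The genes whose log2 CPM over the 6 libraries came closest to the mean profile of the 5 B cell members were Det1 (Pearson r = 0.990), Capn3 (0.983), Cxcr6 (0.981), Lag3 (0.978) and Ndst2 (0.971). Cxcr6 and Lag3 are best known from T cells. For the 4 antibody and plasma cell members they were Dmap1 (0.990), Chrna2 (0.984), Slc25a20 (0.983), Gm11007 (0.983) and Pex11a (0.982). These are the highest of 12493 genes searched over 6 libraries that share their depth and scaling, and are given as a description. The members and the immunoglobulin segments were left out of the search.

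**Figure D4:**
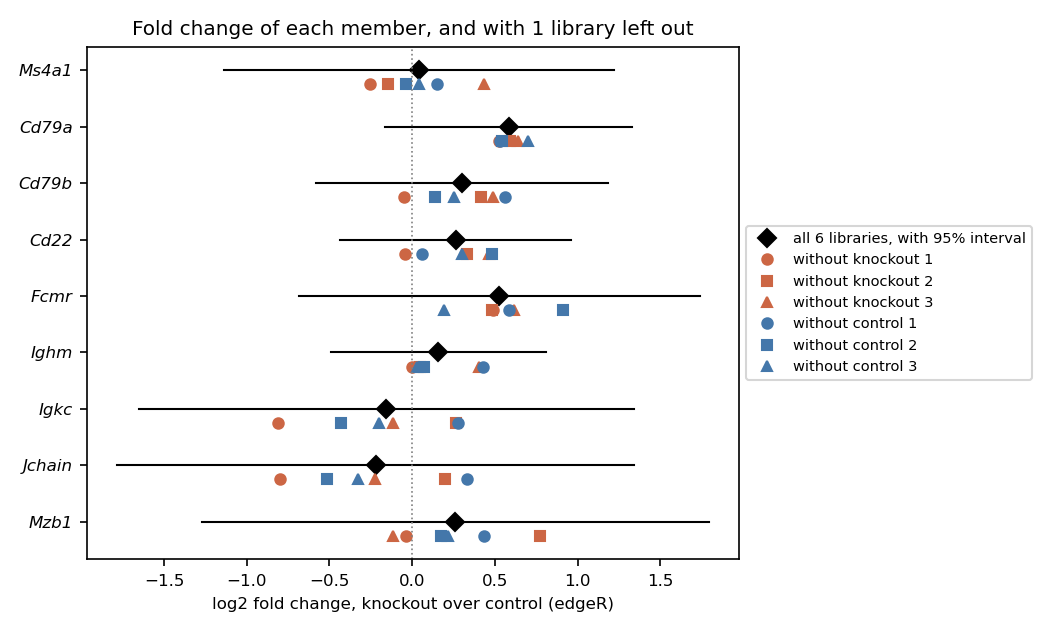
Log2 fold change of each member, knockout over control, in edgeR: diamonds use all 6 libraries with the 95% interval, and coloured symbols below each leave out 1 library. Every interval crosses 0, and Igkc and Jchain run from -0.81 and -0.80 without knockout replicate 1 to 0.28 and 0.33 without control replicate 1.

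Which single animal was left out set the direction for most members. Igkc and Jchain had log2 fold changes of -0.81 and -0.80 without knockout replicate 1, and of 0.27 and 0.20 without knockout replicate 2. Without control replicate 2, the library that stood apart, they were -0.43 and -0.52. Cd79a and Fcmr lay above 0 in all 14 alternatives run, from 0.23 to 0.70 and from 0.12 to 0.91, and no member passed in any of them. The number of members above 0 was 2 without knockout replicate 1 and 9 without control replicate 1.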

How the data were processed

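Polyadenylated RNA of 6 mouse livers was sequenced, 3 per group. Library construction kept the strand, per the labels' protocols. GRCm38, DESeq2 1.38.3, RSEM 1.3.3, HISAT2 2.2.1 and fastp 0.23.2 are named in the submitters' processing notes, which do not give what each was used for. The deposited table, made by the authors, holds estimated counts, which were not normalized, and TPM, scaled to gene length and a fixed total. Of the estimated count values 6.93% were not whole; they were rounded for testing.

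Knockout and control were compared with edgeR 4.0.16 (TMM, filterByExpr, robust quasi-likelihood fit, Benjamini-Hochberg at 0.05) over all genes. Standard errors were derived from the fold change and F statistic, and 95% intervals from these. CPM used TMM-scaled sizes, except summed CPM. In edgeR, p-values set the difference between groups against the variation between the 3 animals of a group, estimated with the help of all genes. Alternatives were DESeq2 1.42.0, limma-voom (limma 3.58.1), RLE and total-count scaling, no filter, a replicate block, limma on log2(TPM + 1) and log2(TPM + 0.1), and each library left out. The fits were tested on simulated data, where edgeR, limma-voom and DESeq2 each made false calls beyond the 0.05 allowed, DESeq2 the most. Positions are from GENCODE M21 (GRCm38). Genes named are the members, Sting1, up to 4 genes of each other list with the smallest unadjusted p and others whose role is the point of the sentence, the immunoglobulin constant genes with at least 10 counts in a library, the leading variable segments, and the 5 closest patterns per member group with a mean CPM of at least 1; Ighe falls outside this rule and was added after its values were seen. The members and lists were chosen with earlier results of these data known. Scripts ran in Python 3.11.15 and R 4.3.3, with figures from matplotlib 3.10.9.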

Additional observations from a re-analysis of the deposited data

How the results depend on the processing

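No member passed under any of the 14 alternatives. The number of genes passing was 127 in DESeq2 and 5 with the replicate block, and 0 to 2 when single libraries were left out (2 without control replicate 2 and 2 without control replicate 3). Of the 9 members, 3 lay above 0 on log2(TPM + 1) and on log2(TPM + 0.1), where their median was -0.11 and -0.30 and that of all genes -0.20 and -0.23; leaving out 1 library gave 2 to 9 above 0 and a median of -0.0451 to 0.432. With total counts alone the median of all genes was -0.21, Ms4a1 stood at -0.16 and Ighm at -0.0479. Ms4a1 was -0.14 in limma-voom, -0.0739 with the replicate block, -0.0928 on log2(TPM + 1) and -0.30 on log2(TPM + 0.1). Mzb1 was -0.23, -0.017, -0.17 and -0.47 in those fits. On the TPM scales Cd22 was -0.38 and -0.43, and Ighm -0.11 on each. Leaving out 1 library gave -0.25 to 0.43 for Ms4a1, -0.0484 to 0.56 for Cd79b, -0.0451 to 0.48 for Cd22, -0.00154 to 0.43 for Ighm, -0.81 to 0.28 for Igkc, -0.80 to 0.33 for Jchain and -0.12 to 0.77 for Mzb1. The cause was not tested. The deviations of same-numbered libraries from their group means had correlations of 0.115, -0.00678 and 0.133. Those of libraries with different numbers ran from -0.281 to 0.178, and not every library correlated best with its own number. The replicate numbers are not said to pair the animals. With 3 libraries per group, these correlations cannot decide whether they do. With the replicate block 5 members lay above 0. In knockout livers the coefficient of variation was above that of counting error for Ms4a1 (53.9% against 23.4%) and Mzb1 (74.3% against 21.3%), and below it for Cd79a and Fcmr.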
